A study of Mus musculus with 7 samples.

Results

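The genes of the Notch pathway were followed through the cell types of the mouse mammary gland: the receptors *Notch1*, *Notch2*, *Notch3* and *Notch4*, the ligands *Jag1*, *Jag2*, *Dll1* and *Dll4*, and the target genes *Hes1* and *Hey1*. These 10 genes were taken by symbol, and each had 1 row among the 27998 genes of the count matrix. Cells came from the abdominal glands of 3 young (3 to 4 months; Young A, B and C) and 4 aged (13 to 14 months; Aged A, B, C and D) nulliparous female mice of a mixed background, with 1 single-cell 3′ library per mouse. All mice were actively cycling, were taken in diestrus and received no treatment, so age was the compared factor. The 13684 cells carried the authors' names for 13 cell types. These include the epithelial myoepithelial, hormone-sensing luminal (HS), alveolar luminal (AV) and HS-AV cells, and the stromal fibroblasts, pericytes, vascular endothelial and lymphatic endothelial cells. The remaining types are immune.

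Notch signaling passes between touching cells. A Jagged or Delta ligand on the surface of a cell pulls on a Notch receptor of its neighbor, the protease ADAM10 and then the gamma-secretase complex cut the receptor, and the freed intracellular part enters the nucleus, where it joins RBPJ and Mastermind proteins on DNA. *Hes1* and *Hey1* encode transcriptional repressors and are among the best known targets, although *Hes1* also responds to other signals. In the mammary gland the pathway is known for its part in luminal cell fate, and in blood vessels Dll4 and Notch1 restrain sprouting while Notch3 is a receptor of mural cells.

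The libraries held 6652599 to 16999625 unique molecular identifiers (UMIs) per mouse, with 2714 to 17158 UMIs per cell, and the 10 genes were counted from summed UMIs per mouse and cell type. Levels between cell types are given as CPM, the UMIs of a gene scaled to a common total of UMIs in the summed cells. A 3′ UMI count has no gene length term, and levels of different genes were not ranked against each other. The cell types were clustered by the authors from the same cells, so differences between types are a description with no p-value. Of all cells, 202 (1.48%) shared their barcode sequence with a cell of another mouse. Cell names of young and aged libraries had a different form, and a difference of age cannot be told apart from a difference of library handling. Median mitochondrial UMIs were 3.18 to 3.68% in young and 2.48 to 2.82% in aged mice.

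The labels of the types that carry most results were set against marker genes. The myoepithelial keratins *Krt14*, *Krt17* and *Krt5* summed to 8999.8 to 11744 CPM in myoepithelial cells. Pericytes held their marker *Rgs5* at 345 to 1340 CPM, but they also held the endothelial markers *Pecam1*, *Cdh5*, *Kdr* and *Emcn* at a sum of 1618 to 1971 CPM in young and 691 to 1141 CPM in aged mice, against 1704 to 2384 CPM in vascular endothelial cells. All 4 endothelial markers were present in the pericytes of every mouse, and 222 of 231 young and 64 of 118 aged pericytes had at least 1 UMI of them. The lymphatic endothelial cells numbered 3 to 7 per mouse in 5 mice and the aged HS-AV cells 4 to 6 per mouse in 3 mice, so their levels rest on few UMIs.

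*Dll4* (chr2:119325784-119335962, plus strand) and *Jag1* (chr2:137081456-137116644, minus strand) lie on chromosome 2, and *Notch3* (chr17:32120820-32166852, minus strand) and *Notch4* (chr17:34564268-34588503, plus strand) on chromosome 17 of the GRCm38 (mm10) build. Their promoters, the bases just upstream of the gene start from RefSeq on GRCm38.p6, are shown because these genes had the sharpest restriction by cell type or the largest age differences. Sequences run 5′ to 3′ on the gene's strand, and capitals mark GC boxes (GGGCGG or CCGCCC).
Dll4, chr2:119325534-119325783: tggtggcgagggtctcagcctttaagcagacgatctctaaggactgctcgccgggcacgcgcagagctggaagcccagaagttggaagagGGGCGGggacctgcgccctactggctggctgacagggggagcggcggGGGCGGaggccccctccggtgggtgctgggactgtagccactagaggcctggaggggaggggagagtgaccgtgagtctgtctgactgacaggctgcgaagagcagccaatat
Jag1, chr2:137116645-137116770: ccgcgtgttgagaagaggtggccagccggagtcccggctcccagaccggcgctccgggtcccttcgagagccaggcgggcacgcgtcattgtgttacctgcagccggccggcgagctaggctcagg
Notch3, chr17:32166891-32167140: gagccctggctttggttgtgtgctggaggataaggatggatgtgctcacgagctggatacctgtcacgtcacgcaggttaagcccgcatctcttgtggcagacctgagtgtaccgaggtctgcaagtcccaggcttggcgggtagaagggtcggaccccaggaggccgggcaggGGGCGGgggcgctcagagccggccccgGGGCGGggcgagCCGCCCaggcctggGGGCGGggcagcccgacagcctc
Notch4, chr17:34564045-34564267: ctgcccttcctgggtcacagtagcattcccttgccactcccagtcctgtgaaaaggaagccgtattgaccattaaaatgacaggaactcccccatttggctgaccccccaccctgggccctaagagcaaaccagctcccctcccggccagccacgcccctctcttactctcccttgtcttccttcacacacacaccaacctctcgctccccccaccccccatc
The window of 250 bases held 2 GC boxes in *Dll4* and 4 in *Notch3*, and none in *Jag1* or *Notch4*. A GC box was present in 5 of 9 promoters of 8 genes of the pathway and in 32.7% of all 32851 promoters. The core of the RBPJ motif (TGGGAA or TTCCCA, with no overlap with the GC box) was in 0 of these 9 windows and in 21.6% of all promoters. *Hes1* and *Hey1* promoters were not analysed here.

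Ligands differed sharply between cell types. *Jag1* was highest in myoepithelial cells, at 169.6 ± 135 CPM (SD, n = 7 mice), with a lowest value of 16.2 CPM, a median of 202 and a highest of 338. It followed in HS-AV cells at 58.9 ± 62.2 CPM (n = 6), pericytes at 51.2 ± 19.6 CPM and vascular endothelial cells at 40.5 ± 21.0 CPM (both n = 7). The ranges of these neighbors overlapped. In the 3 young mice alone, myoepithelial cells had 32.5 ± 16.5 CPM and HS-AV cells 30.0 ± 17.3 CPM, both below pericytes at 50.6 ± 11.6 CPM. Of myoepithelial cells pooled over young and aged mice, 47.3% had a *Jag1* UMI (95% Wilson interval 44.9 to 49.7%; 28.9% after each cell was thinned to 2000 UMIs). The share was 1.37% in Mb macrophages (0% thinned), a type taken as a background. The interval covers counting error only and not the spread over mice, and the shares of young and aged mice lay apart (below). Median depth was 4431 UMIs in myoepithelial cells and 5343 in Mb macrophages. AV cells stood low, at 3.35 ± 2.23 CPM.

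*Dll4*, the endothelial Delta ligand, came mostly from vessel-associated cells: vascular endothelial cells contributed 74.1% of its UMIs over all mice and pericytes 13.9%. Its level was 85.4 ± 65.8 CPM in lymphatic endothelial cells (n = 5), 49.4 ± 29.9 CPM in vascular endothelial cells and 46.8 ± 34.1 CPM in pericytes (both n = 7). These levels overlapped, and the vascular cells were above pericytes in 4 of 7 mice. In the epithelial types and fibroblasts the mean stayed between 0.53 and 1.44 CPM. *Dll1* had both an epithelial and an endothelial source, with 38.1 ± 11.2 CPM in myoepithelial and 23.4 ± 4.02 CPM in vascular endothelial cells, and the myoepithelial level was the higher of these in 7 of 7 mice. Its highest mean was in lymphatic endothelial cells, which were above myoepithelial cells in 3 of 5 mice and had a lowest value of 0 CPM. *Jag2* was the scarcest ligand in UMIs, with 11.1 ± 6.98 CPM in vascular endothelial cells, 8.67 ± 8.50 CPM in pericytes and 7.38 ± 6.97 CPM in myoepithelial cells. The order of these 3 types did not hold across mice.

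**Figure D1:**
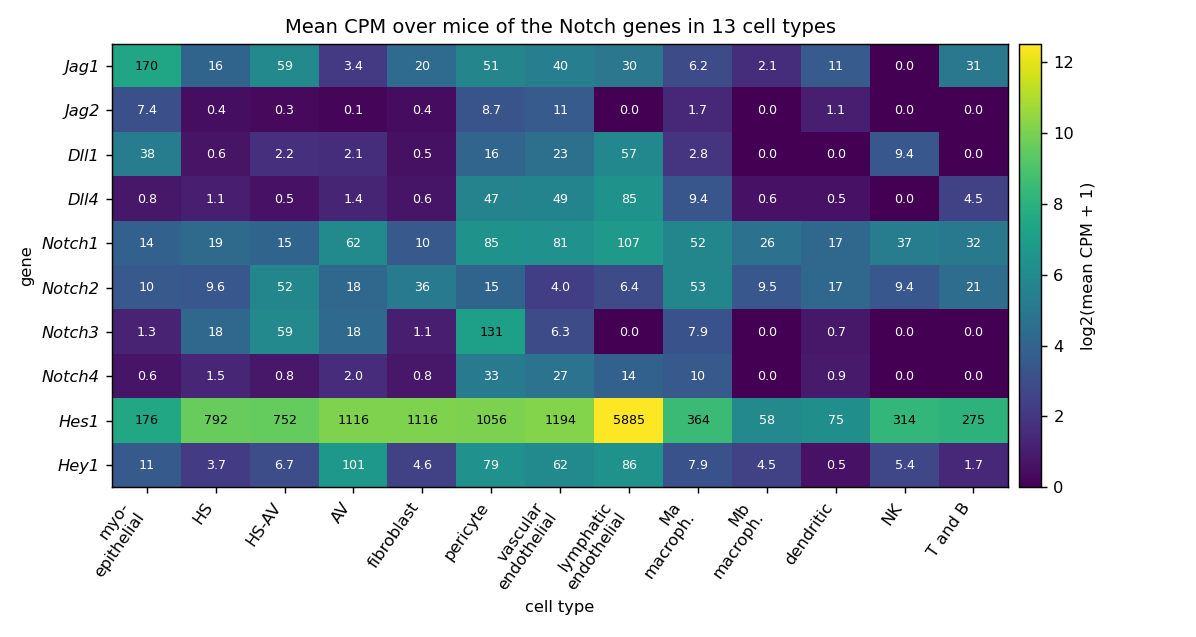
Mean CPM over mice (numbers in the cells; color on a log2 scale with 1 CPM added) of the 10 Notch genes in 13 cell types. Over young and aged mice together, *Jag1* is highest in myoepithelial cells (170), *Notch3* in pericytes and *Hey1* in AV cells (101). *Dll4* and *Notch4* are highest in vessel-associated cells.

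Each receptor had its own distribution. *Notch1* was the most widespread: it reached 107.2 ± 47.2 CPM in lymphatic endothelial cells (n = 5), 85.5 ± 45.5 CPM in pericytes, 80.9 ± 38.4 CPM in vascular endothelial cells and 62.1 ± 14.9 CPM in AV cells (n = 7 each), and neighbors in this order overlapped. In the other epithelial types it was lower, at 18.9 ± 9.22 CPM in HS and 13.8 ± 4.36 CPM in myoepithelial cells. AV cells were above both of them in 7 of 7 mice. *Notch2* had a different order, with Ma macrophages (53.1 ± 4.69 CPM, 3 young mice) and HS-AV cells (52.3 ± 25.9 CPM, n = 6) at the top, fibroblasts next (35.6 ± 19.4 CPM) and vascular endothelial cells last of all 13 types (4.02 ± 2.14 CPM). *Notch2* and *Jag1* were higher in HS-AV than in HS cells in 6 of 6 mice, and higher than in AV cells in 6 of 6. In the aged mice, whose HS-AV sums held 23018 to 27288 UMIs each, a single UMI was enough for this order.

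*Notch3*, the mural-cell receptor, ranged from 85.8 to 192 CPM in pericytes and was above vascular endothelial cells (6.26 ± 4.49 CPM) in 7 of 7 mice. Among epithelial cells, AV (18.3 ± 9.32 CPM) and HS cells (18.1 ± 7.29 CPM) had like levels, with AV higher in 3 of 7 mice, and myoepithelial cells had 1.33 ± 1.21 CPM. No *Notch3* UMI was found in Mb macrophages, which allows a share of cells with a UMI of up to 2.56% (Wilson upper limit, 95%). *Notch4*, an endothelial receptor, stood at 33.2 ± 21.2 CPM in pericytes and 26.5 ± 14.7 CPM in vascular endothelial cells, with no steady order between them, and at 2.02 ± 0.959 CPM or less in each epithelial type and in fibroblasts. Intervals here cover counting error only.

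In pericytes these receptor levels divided by the presence of endothelial UMIs. Aged pericytes with such a UMI (64 cells) had 86.2 CPM of *Notch1*, 40.4 of *Notch4* and 43.1 of *Dll4*, whereas those without (54 cells) had 8.71, 0 and 0 CPM. *Notch3* went the other way, with 59.3 CPM in cells with and 196 CPM in cells without an endothelial UMI. Young pericytes without an endothelial UMI numbered 9, too few to place most genes. *Notch3* stood at 436 CPM there against 149 CPM in the 222 others, and *Notch1* at 24.2 against 130 CPM. *Notch4* had 0 UMIs against 54, but *Dll4* was not lower, at 72.6 CPM (3 UMIs in 1 cell) against 61.1 CPM. *Hey1* and *Dll1* also divided in aged pericytes, at 99.7 and 24.2 CPM with and 13.1 and 0 CPM without an endothelial UMI. In young pericytes *Dll1* was at 20.9 against 0 CPM. Young *Hey1* was not lower without, at 121 CPM (5 UMIs in 2 cells) against 87.1 CPM. By UMIs, the pericyte values of *Notch1*, *Notch4*, *Dll4*, *Dll1* and *Hey1* came mainly from cells that also carried endothelial RNA. Nearly all young pericytes were such cells, and the source of that RNA was not tested.

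The target genes were read in the same cells. *Hes1* was abundant in most types, and its level in lymphatic endothelial cells, 5885 ± 2018 CPM (25 cells of 5 mice), exceeded every vascular endothelial value of the series. A list of 8 dissociation and stress genes, *Fos* and *Jun* among them, was high in the same cells, at a sum of 14150 to 65372 CPM against 8760 to 12107 CPM in vascular endothelial cells, and its part in the *Hes1* level was not tested. Over young and aged mice together, vascular endothelial cells (1194 ± 454 CPM), fibroblasts (1116 ± 449), AV cells (1116 ± 330) and pericytes (1056 ± 153) did not separate. In the young mice alone, vascular endothelial cells had 1643 ± 292 CPM, above pericytes at 1006 ± 144 CPM in 3 of 3 mice. HS cells were lower than pericytes in 7 of 7 mice, at 792 ± 147 CPM. Myoepithelial cells, the main source of *Jag1* UMIs in aged mice, had 176 ± 63.5 CPM of *Hes1*, below AV and HS cells in 7 of 7 mice. In Mb macrophages *Hes1* was at 58.0 ± 38.8 CPM, and 13.7% of these cells had a UMI (7.53% thinned) against 79.4% of AV cells (59.7% thinned).

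*Hey1* was narrower. It reached 101.5 ± 46.2 CPM in AV cells, 79.3 ± 24.7 CPM in pericytes and 62.3 ± 10.9 CPM in vascular endothelial cells, and fell off to 10.7 ± 7.78 CPM in myoepithelial and 3.70 ± 2.50 CPM in HS cells. Lymphatic endothelial cells ranked between AV cells and pericytes by mean, and AV cells were above them in 2 of 5 mice. In young mice alone, pericytes had 96.6 ± 27.5 CPM and AV cells 70.7 ± 43.3 CPM. Most *Hey1* UMIs of pericytes came from cells with an endothelial UMI (above). The AV level was above HS and above myoepithelial cells in 7 of 7 mice, by 4.45 ± 1.42 on the log2 scale for HS (mean ± SD over mice, 1 CPM added). AV cells thus held more *Notch1*, *Dll1* and *Hey1* than HS cells in every mouse, and HS cells more *Jag1* than AV cells in every mouse. *Dll1* was low in both, at 1.40 ± 0.350 CPM in AV and 0.353 ± 0.184 CPM in HS cells of young mice. Myoepithelial cells held more *Jag1*, *Jag2* and *Dll1* than AV cells in every mouse, and AV cells more *Notch1*, *Notch3*, *Notch4*, *Hes1* and *Hey1* than myoepithelial cells. *Notch4* was low in both, at 1.26 ± 0.495 CPM in AV and 0.315 ± 0.545 CPM in myoepithelial cells of young mice.

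The genes most like each member were sought over 56 sums (8 types in 7 mice, 10449 genes), as Pearson r of log2 CPM. The sums of a mouse share a library, and the r values are a description. *Dll4* was closest to *Clic5* (0.955), *Cyyr1* (0.951) and *Sema7a* (0.944), and *Notch4* to *Syt15* (0.939), *Ccm2l* (0.931) and *Tmem255b* (0.931). *Dll4* and *Notch4* also had the highest r between members, at 0.850. *Hes1* was closest to *Jund* (0.886) and *Jun* (0.868), genes of the AP-1 family, and to *Rhob* (0.836). *Jag1* had no gene above 0.742 (*Slc44a2*), and *Notch2* none above 0.632 (*Btbd2*).

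To ask how the pathway differed between young and aged mice, each gene was tested per cell type with edgeR's quasi-likelihood test on UMI sums of the 7 mice. A gene was called at an adjusted p below 0.05 over all genes and a difference of at least 1.5-fold. Values in the following age comparisons are CPM scaled by TMM factors (scaled CPM), as in the fit. Over 8 types the filter on low counts left 37 tests of the 10 genes. Calls numbered 9, in 6 genes and 3 types, with 6 higher and 3 lower in aged mice. Myoepithelial cells had 4 called members of 7 tested (27.6% of all 6740 genes were called there) and vascular endothelial cells 4 of 9 (26.7% of 7864). HS cells had 1 of 5 (6.26% of 8457), AV cells 0 of 8 (6.16% of 11012), fibroblasts 0 of 3 (3.17% of 5513) and pericytes 0 of 5 (11.8% of 2601). No member passed the filter in Mb macrophages (1.16% of 859 genes called) or in T and B cells (0.656% of 457). An unadjusted edgeR p below 0.05 was reached by 4 of 8 members in AV cells (2550 of all 11012 genes). It was reached by 2 of 3 members in fibroblasts (1102 of 5513 genes) and 1 of 5 in pericytes (726 of 2601). DESeq2 called 0 members in each of these 3 types.

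**Figure D2:**
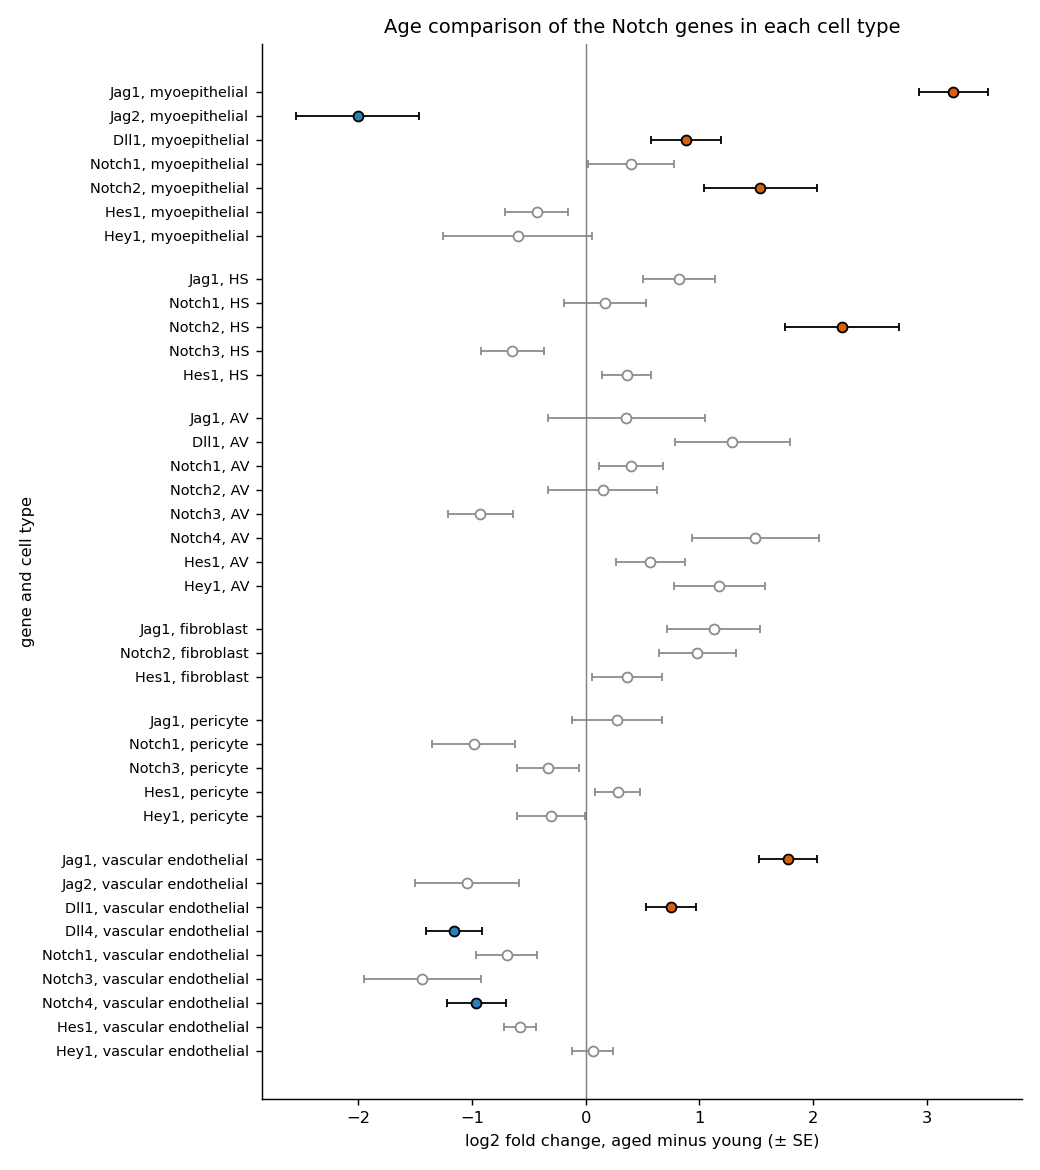
Log2 fold change, aged minus young, with its SE (edgeR, 3 young and 4 aged mice) for the 37 tests of Notch genes. Filled points are called (orange higher and blue lower in aged mice), and open points are not. *Jag1* in myoepithelial cells (3.23) lies farthest from 0.

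In myoepithelial cells the ligands moved apart. *Jag1* was at 32.3, 45.9 and 16.1 scaled CPM in Young A, B and C and at 292, 267, 210 and 387 in Aged A, B, C and D. Every aged value exceeded every young value. The difference was 9.40-fold (log2 fold change 3.23 ± 0.305 SE, edgeR adjusted p = 4e-06), and this gene belongs to a list of age-regulated genes the study chose on these same samples. By cells, 9.26 to 22.5% of young and 47.7 to 64.7% of aged myoepithelial cells of a mouse had a *Jag1* UMI (1.85 to 7.50% and 30.4 to 38.8% thinned). *Jag1* UMIs from myoepithelial cells made up 2.43 to 19.7% of the *Jag1* UMIs of a young mouse and 60.1 to 82.0% of an aged one. These shares also rise with the number of myoepithelial cells captured, 40 to 187 per young and 125 to 662 per aged mouse.

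*Jag2* was lower in aged myoepithelial cells. It was at 9.50, 18.3 and 12.9 scaled CPM in Young A, B and C and at 2.70, 4.37, 1.60 and 1.31 in Aged A to D. The groups did not overlap, but these values stand on 1 to 12 UMIs per mouse. The difference was 4.01-fold (log2 fold change -2.00 ± 0.541 SE, edgeR adjusted p = 0.0116). *Dll1* was at 16.1, 41.3 and 32.3 scaled CPM in young and 48.7, 48.8, 40.0 and 45.1 in aged mice, so Young B lay within the aged range. Its difference of 1.85-fold (0.88 ± 0.311 SE, edgeR adjusted p = 0.0422) was lost without Young A (log2 fold change 0.33, adjusted p = 0.502), the mouse with the lowest value, and without any single aged mouse (adjusted p = 0.0527 to 0.0847).

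The receptor *Notch2* was also higher in aged myoepithelial cells. It was at 7.60, 0 and 3.23 scaled CPM in young mice, where 9 UMIs were counted in all, and at 20.7, 15.3, 12.8 and 15.0 in aged mice, with no overlap. The fitted log2 fold change of 1.54 ± 0.494 SE (edgeR adjusted p = 0.0282) is no bound, as Young B had no UMI, and it was no longer called without Young B (adjusted p = 0.0531) or Young C (0.0675). *Notch1* (10.9 ± 5.53 young, 16.8 ± 3.02 aged), *Hes1* (208 ± 47.8 and 154 ± 62.2) and *Hey1* (11.5 ± 2.02 and 10.4 ± 11.2) did not pass the test, with overlapping scaled CPM. *Hey1* was called lower without Aged C, whose value of 27.2 was the highest (edgeR log2 fold change -1.35, adjusted p = 0.0373). The epithelial markers *Epcam*, *Krt8* and *Krt18* summed to 956 to 1617 CPM in young and 2441 to 3237 CPM in aged myoepithelial cells. The 4 fibroblast markers summed to 428 to 766 CPM in young and 53.1 to 169 CPM in aged mice. *Dcn*, among these markers, is listed by the study with the matrix genes lower in aged myoepithelial cells. Leaving out cells with a fibroblast-marker UMI left 52, 10 and 14 cells of Young A, B and C. In this fit *Jag1* kept a log2 fold change of 3.03 (edgeR adjusted p = 3.3e-05), while *Dll1* was not called (0.70, adjusted p = 0.275). *Notch2* and *Jag2* fell below the count filter. By summed cells, *Dll1* was at 26.1 CPM in young and 43.4 CPM in aged cells without such a UMI, and at 21.7 and 46.4 CPM in cells with one. The part of the epithelial markers in these results was not tested.

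**Figure D3:**
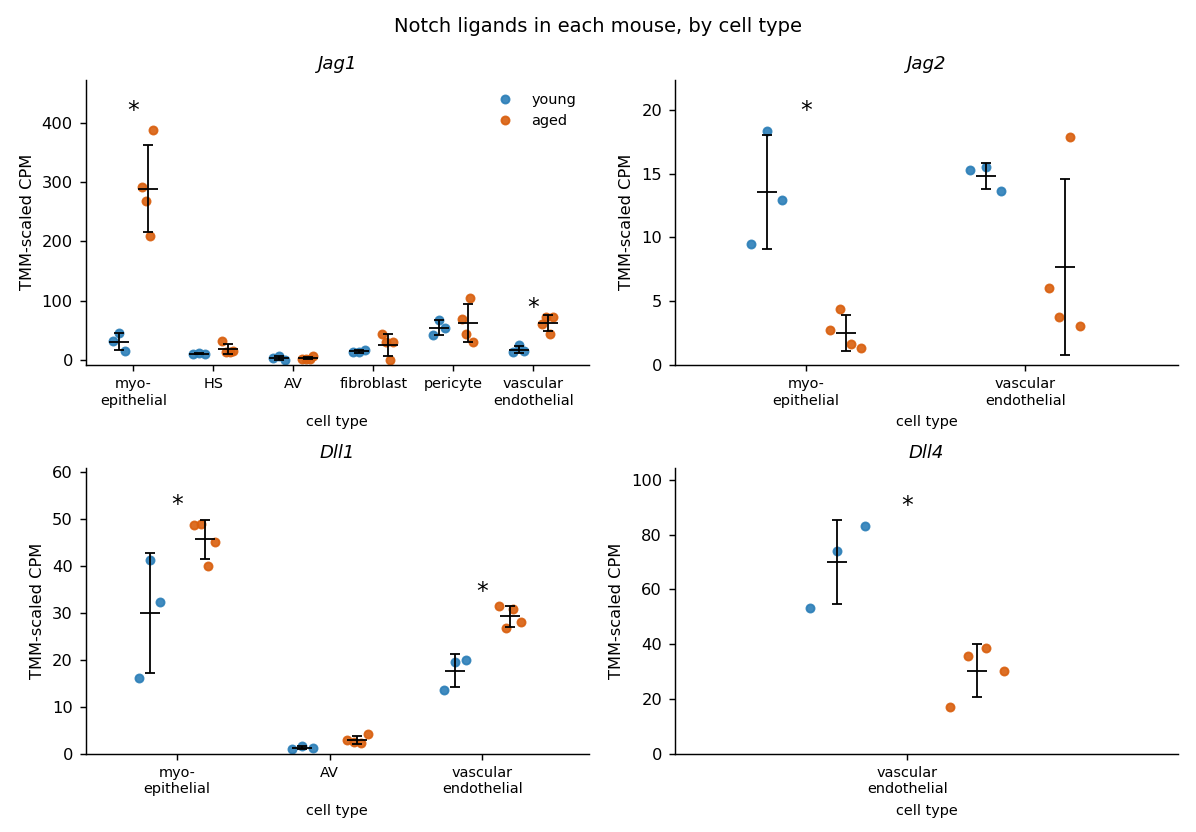
Scaled CPM of the 4 ligands in each young (blue) and aged (orange) mouse, for each cell type in which the ligand was tested. Black bars give mean ± SD (3 young, 4 aged mice), and an asterisk marks a called age difference. Aged myoepithelial *Jag1* lies between 210 and 387, above all young values (16.1 to 45.9).

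In HS cells *Notch2* was the only called member. It was at 2.67, 4.22 and 2.90 scaled CPM in Young A, B and C and at 30.4, 11.4, 8.29 and 6.64 in Aged A to D. The groups did not overlap, and Aged A stood well above the other aged mice with 40 of the 72 aged UMIs. The difference was 4.78-fold (log2 fold change 2.26 ± 0.499 SE, edgeR adjusted p = 0.0257). It was not called by edgeR without Young A (adjusted p = 0.0827), Young B (0.0596) or Young C (0.121), and fell below the count filter without Aged B. Without Aged A it stayed called, at a log2 fold change of 1.58 (edgeR adjusted p = 0.0388). The 4 fibroblast markers summed to 60.0 to 119 CPM in young and 287 to 1830 CPM in aged HS cells, but 1 of the 4 carried this difference: *Dcn* reached 286 to 1825 CPM while *Col1a1*, *Lum* and *Pdgfra* were at 0 to 2.37 CPM in aged mice. Among cells without any fibroblast-marker UMI, *Notch2* was at 12.8 CPM in aged and 3.24 CPM in young mice, and the fit on these cells gave a log2 fold change of 2.00 (edgeR adjusted p = 0.0287).

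The other 4 members tested in HS cells, *Notch1*, *Notch3*, *Jag1* and *Hes1*, did not pass the test. *Jag1* was at 9.98 to 12.7 scaled CPM in young and 13.8 to 31.9 in aged HS cells with no overlap (log2 fold change 0.82 ± 0.317 SE, edgeR adjusted p = 0.144). *Notch3* was at 21.4 to 25.8 in young and 8.29 to 19.5 in aged HS cells, again with no overlap (-0.64 ± 0.274 SE, adjusted p = 0.183). In AV cells *Notch3* had the same form, with 17.2 to 29.8 scaled CPM in young and 8.66 to 16.1 in aged mice (edgeR log2 fold change -0.93 ± 0.287 SE, adjusted p = 0.0846). AV *Hey1* (36.8 to 111 young, 77.7 to 181 aged; 1.17 ± 0.400 SE, edgeR adjusted p = 0.109) and *Hes1* (549 to 1101 and 848 to 1895; 0.57 ± 0.304 SE, adjusted p = 0.292) overlapped between groups, and *Hey1* was called without Young B (1.73, edgeR adjusted p = 0.0370). *Dll1* and *Notch4* were low in AV cells, at 1.01 to 4.06 and 0.754 to 4.04 scaled CPM over all mice, each without overlap and with an edgeR adjusted p of 0.157 and 0.139.

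Vascular endothelial cells showed lower *Dll4* and *Notch4* and higher *Jag1* and *Dll1* in aged mice. *Dll4* was at 53.2, 73.9 and 83.2 scaled CPM in Young A, B and C and at 16.9, 35.7, 38.7 and 30.2 in Aged A to D. Every aged value was below every young value, and the difference was 2.23-fold (log2 fold change -1.16 ± 0.245 SE, edgeR adjusted p = 0.00312). *Jag1*, which shares the Notch receptors with Dll4, went the other way, with 14.0, 24.8 and 14.9 in young and 60.3, 72.1, 44.6 and 73.2 in aged mice. It was 3.44-fold higher in aged mice without overlap (1.78 ± 0.256 SE, edgeR adjusted p = 0.000192). The 3 myoepithelial keratins were also higher in aged vascular endothelial cells, at a sum of 62.4 to 175 CPM against 9.80 to 36.4 CPM in young mice. In the cells without a keratin UMI (867 young, 678 aged) *Jag1* was at 15.5 to 27.3 CPM in young and 41.2 to 69.5 CPM in aged mice, again without overlap.

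*Notch4* was at 42.5, 38.4 and 23.6 scaled CPM in young and 15.7, 23.8, 21.8 and 12.8 in aged vascular endothelial cells, and Young C lay just under Aged B. Its difference of 1.95-fold (log2 fold change -0.96 ± 0.261 SE, edgeR adjusted p = 0.0140) was not called without Young A (adjusted p = 0.0803), Young B (0.0561) or Aged D (0.0540). With the replicate letter as a block it was not called either (adjusted p = 0.0973). *Dll1* was at 13.6, 19.5 and 19.9 in young and 31.3, 26.7, 30.7 and 27.9 in aged mice with no overlap, a 1.69-fold difference (0.75 ± 0.220 SE, edgeR adjusted p = 0.0201) that was not called without Young A (0.56, adjusted p = 0.121) or with the block (0.75, adjusted p = 0.0791). *Hes1* was 1317 to 1681 in young and 909 to 1130 in aged mice without overlap. Its edgeR adjusted p was 0.00822, but its 1.49-fold difference stayed under the minimum of 1.5-fold. It passed that minimum too, and was called, without Young B (log2 fold change -0.63), Young C (-0.63) or Aged D (-0.65).

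The remaining members of this cell type were not called. *Notch1* was at 72.2 to 118 scaled CPM in young and 40.1 to 99.2 in aged mice (edgeR log2 fold change -0.69 ± 0.269 SE, adjusted p = 0.0694), *Notch3* at 7.01 to 11.2 and 0.754 to 8.44 (-1.44 ± 0.516 SE, adjusted p = 0.0519) and *Jag2* at 13.7 to 15.6 and 3.02 to 17.8 (-1.04 ± 0.458 SE, adjusted p = 0.106). The groups overlapped through a single aged mouse in each gene: Aged C for *Notch1* and *Jag2*, and Aged A for *Notch3*. Without that mouse each was called lower by edgeR, *Notch1* at -0.996 (adjusted p = 0.00751), *Jag2* at -1.87 (0.00227) and *Notch3* at -2.13 (0.00563). *Notch1* was also called without Young A (-0.90, edgeR adjusted p = 0.0359). The 4 pericyte markers *Rgs5*, *Des*, *Cspg4* and *Kcnj8* summed to 99.6 to 361 CPM in young and 4.19 to 68.6 CPM in aged vascular endothelial cells. In the cells without a UMI of these markers (770 young, 836 aged), *Notch3* was at 1.92 to 3.28 CPM in young and 0.701 to 2.14 CPM in aged mice, on 1 to 5 UMIs per mouse and with overlap. *Hey1* was at 57.8 to 67.0 in young and 52.8 to 78.3 in aged mice (0.06 ± 0.178 SE, adjusted p = 0.827).

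**Figure D4:**
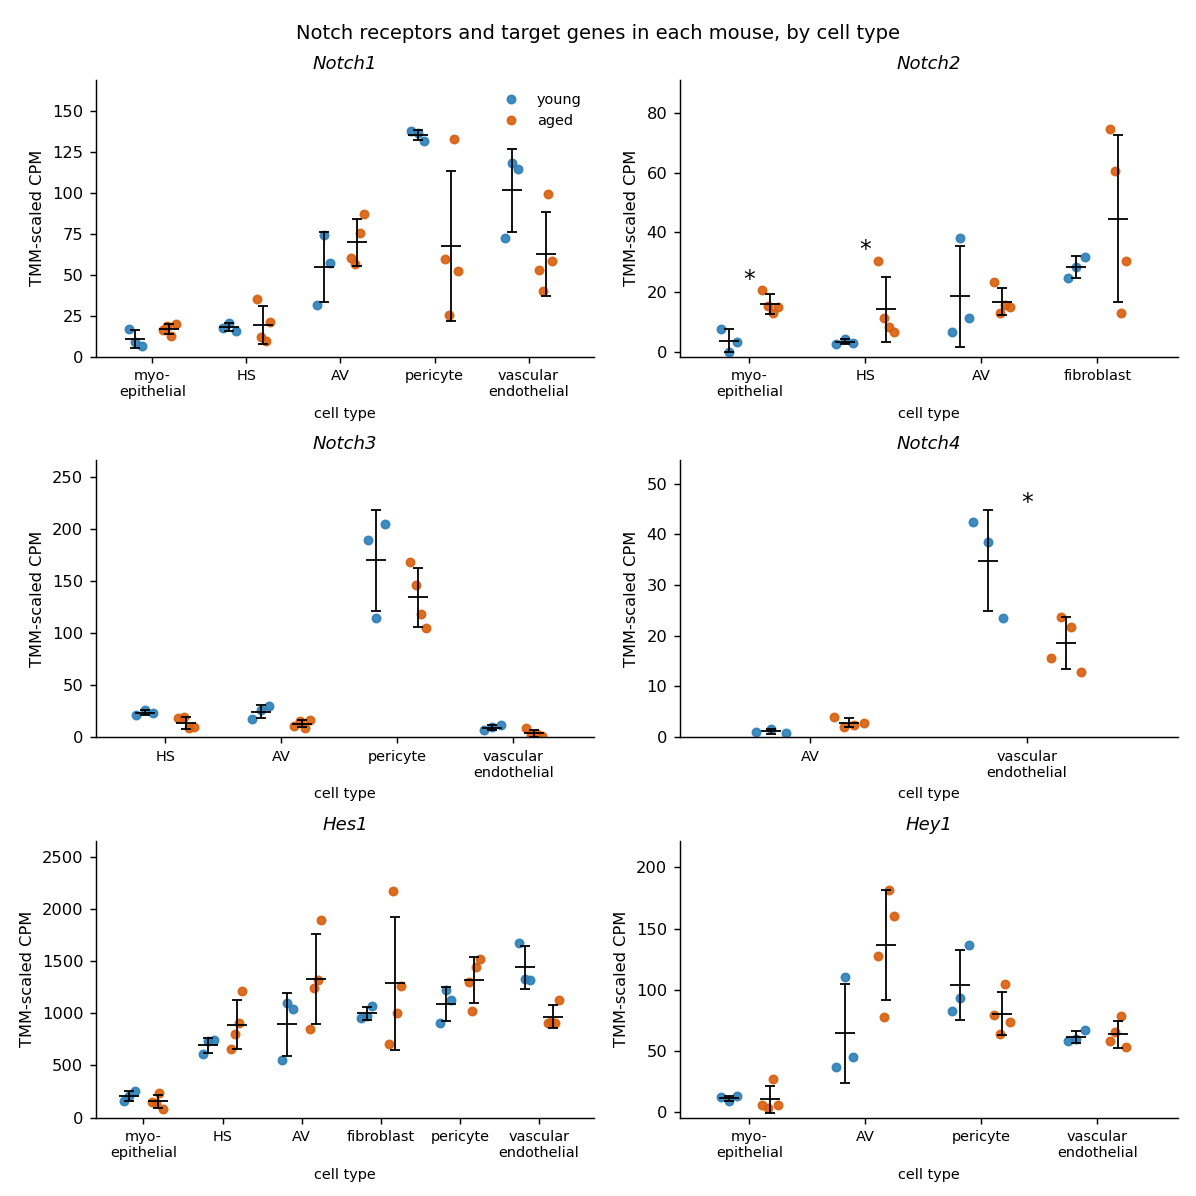
Scaled CPM of the receptors and target genes in each young (blue) and aged (orange) mouse, for each cell type in which the gene was tested. Black bars give mean ± SD (3 young, 4 aged mice), and an asterisk marks a called age difference. *Notch2* is called in myoepithelial and HS cells and *Notch4* in vascular endothelial cells.

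Immune markers moved with age in the vascular endothelial cells. Their sum was 204 to 607 CPM in young and 619 to 8702 CPM in aged mice, and 30.4 to 52.1% of young and 51.2 to 98.2% of aged cells of a mouse held at least 1 such UMI. A single gene of the 4 carried this sum, *Cd74* (617 to 8697 CPM in aged mice), whereas *Ptprc*, *Tyrobp* and *Lyz2* were at 0 to 2.12 CPM in aged mice. Within the aged group, cells with an immune-marker UMI (663) had 16.1 CPM of *Dll4*, 12.0 of *Notch4* and 31.4 of *Hey1*, and cells without (224) had 67.5, 32.0 and 140 CPM. *Jag1* differed less between them, at 52.6 and 71.8 CPM. In young mice the same division gave 58.9 and 87.4 CPM for *Dll4* and 36.6 and 48.6 CPM for *Notch4*.

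Fitted on cells without an immune-marker UMI, which left 3 cells of Aged A and 12 of Aged D, the age difference of *Dll4* was -0.21 (log2, edgeR adjusted p = 0.696) and that of *Notch4* was -0.40 (adjusted p = 0.596), neither called. *Jag1* remained 1.92 higher (adjusted p = 0.000607). *Hes1* was then called lower at -0.84 (adjusted p = 0.0358) and *Hey1* higher at 0.96 (adjusted p = 0.0129), and *Dll1* fell below the count filter. Aged B and C had the fewest cells with an immune-marker UMI among aged mice, at 51.2 and 61.7%. Young mice had 30.4 to 52.1%. Over all cells, *Dll4* was at 35.7 and 38.7 scaled CPM in Aged B and C, and the lowest young value was 53.2. How far the division by *Cd74* marks separate vessel cells was not tested.

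**Figure D5:**
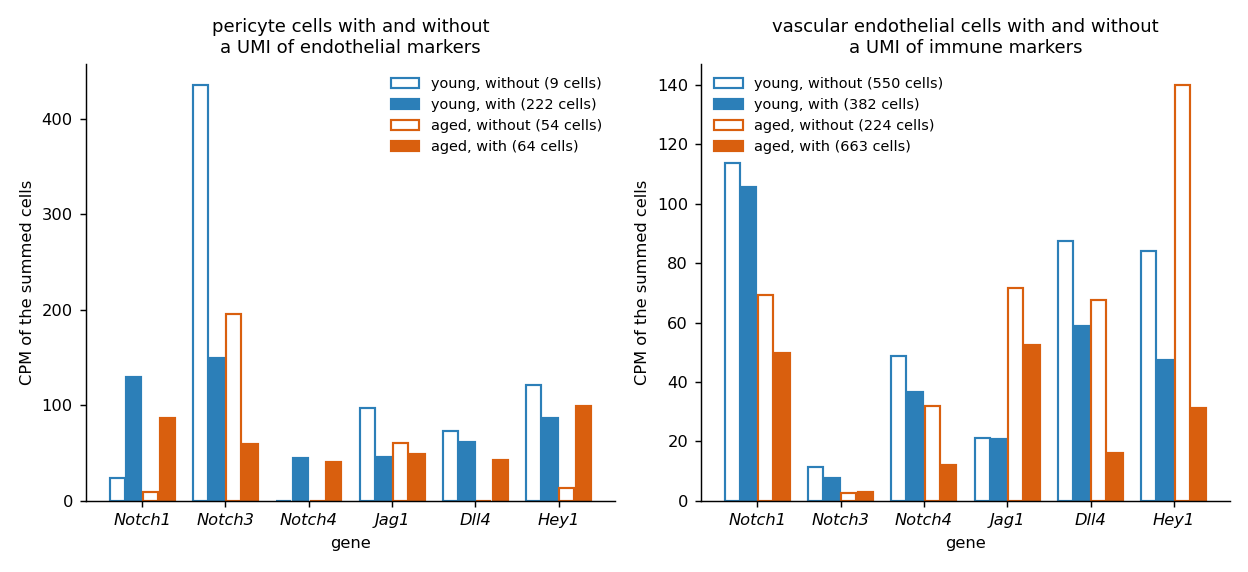
CPM of 6 Notch genes in pericytes with and without a UMI of endothelial markers (left) and in vascular endothelial cells with and without a UMI of immune markers (right), summed over the young (blue) or aged (orange) mice. *Notch4* is at 0 in pericytes without endothelial UMIs, and *Dll4* in aged vascular endothelial cells is at 16.1 with and 67.5 without immune-marker UMIs; bars have no error, as cells are not replicates.

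In pericytes no member was called. *Notch1* was even among young mice, at 138, 136 and 132 scaled CPM, and spread over 59.5, 25.4, 133 and 52.4 in aged mice, where Aged C reached the young range (edgeR log2 fold change -0.99 ± 0.367 SE, adjusted p = 0.0921). Without Aged C it was called lower (-1.64, edgeR adjusted p = 0.00893). The endothelial marker sum of these cells moved in the same direction (above). *Notch3* (115 to 205 young, 105 to 168 aged), *Jag1* (42.2 to 68.2 and 31.4 to 105), *Hes1* (908 to 1224 and 1022 to 1520) and *Hey1* (82.7 to 137 and 63.5 to 105) overlapped. In fibroblasts *Notch2* (24.6 to 31.9 young, 12.9 to 74.8 aged), *Jag1* (13.5 to 17.6 and 0 to 44.1) and *Hes1* (953 to 1069 and 704 to 2179) overlapped as well, with a wider spread in aged mice, which had 15 to 121 fibroblasts each.

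Whether an age effect differed between types was tested with the mouse as a block, at an adjusted p below 0.05. Between myoepithelial and AV cells 1 of 8 members differed (9.25% of 9434 genes did): the *Jag1* effect was 3.27 ± 0.597 (log2 ± SE) higher in myoepithelial cells (edgeR adjusted p = 0.00240). AV *Jag1* itself was at 0.754 to 6.61 scaled CPM in young and 2.24 to 6.28 in aged mice. Between HS and AV cells 1 of 6 members differed (2.41% of 9838 genes), as the *Notch2* effect was 1.91 ± 0.484 higher in HS cells (edgeR adjusted p = 0.0437). This difference stayed called without Aged D (edgeR adjusted p = 0.0289) and was not called in the other 6 fits that left out a mouse, Young A, B or C or Aged A, B or C (adjusted p = 0.0514 to 0.192). Between vascular endothelial cells and pericytes 2 of 9 members differed (9.64% of 7207 genes). The *Jag1* effect was 1.55 ± 0.442 higher (edgeR adjusted p = 0.0225) and the *Hes1* effect 0.83 ± 0.220 lower in vascular endothelial cells (edgeR difference -0.83, adjusted p = 0.0140). The dissociation and stress list summed to 9265 to 10765 CPM in young and 11913 to 15840 CPM in aged pericytes, and to 8760 to 11975 and 9744 to 12107 CPM in vascular endothelial cells. Its part in the *Hes1* difference was not tested. Neither difference was called without Young A, and the *Jag1* difference was also lost without Young B, Aged B or Aged D. *Dll4* (0.02 ± 0.444, edgeR adjusted p = 0.996) and *Notch4* (-0.24 ± 0.575, adjusted p = 0.867) had no called difference between these types. Neither gene passed the count filter in the age fit of pericytes. Aged pericytes without an endothelial UMI held 0 UMIs of both. The comparison therefore cannot tell an age effect in pericytes from one in the endothelial RNA they carried.

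Another 49 genes of the pathway, from ligand sorting to corepressors, were read with the same fits. Of these, 43 were tested in at least 1 type and 12 were called in at least 1. Myoepithelial cells had 4 higher and 4 lower of 28 tested (median log2 fold change -0.02, against 0.01 over all genes). Of all 6740 genes, 27.6% were called in these cells. Genes of receptor cleavage went both ways, with 1 higher and 3 lower of 5 tested. *Ncstn*, the nicastrin subunit of gamma-secretase, was at 36.7 to 42.0 scaled CPM in young and 4.80 to 18.9 in aged mice (-1.80 ± 0.365 SE, edgeR adjusted p = 0.00178). The protease gene *Adam10* was lower at -1.69 (18.3 to 27.5 and 3.20 to 10.8), as was the gamma-secretase subunit gene *Aph1a* at -1.29 (19.4 to 42.7 and 8.11 to 24.0). Related ligands moved both ways, with *Dlk1* higher at 2.82 and *Dlk2* lower at -1.97. Named after their values were seen, *Rbpj* of the DNA-binding partner of Notch (0.74; 26.6 to 45.9 scaled CPM in young and 46.4 to 56.1 in aged mice) and *Snw1* (0.73) were higher in aged mice.

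Vascular endothelial cells had 1 higher and 3 lower of 34 tested (median -0.22, against -0.05 over all genes). Of all 7864 genes, 26.7% were called there, a larger share than in the list. *Neurl3*, of a family of ubiquitin ligases, was at 18.2, 19.9 and 54.6 scaled CPM in young and 164, 149, 257 and 131 in aged mice (log2 fold change 2.67 ± 0.350 SE, edgeR adjusted p = 9.5e-05). *Mib1*, the ubiquitin ligase that makes Notch ligands active, was lower (23.1 to 24.8 and 11.9 to 14.9; -0.86 ± 0.220 SE, adjusted p = 0.0102), as were *Numb*, an inhibitor of Notch receptors (-0.87), and the corepressor gene *Ncor1* (-0.66). In AV cells 1 of 38 was called, against 6.16% of all 11012 genes. This was *Adam10*, at 19.8 to 26.8 in young and 7.14 to 11.8 in aged mice (-1.38 ± 0.248 SE, edgeR adjusted p = 0.0112). In pericytes 1 of 8 was called, against 11.8% of all 2601 genes. This was *Dlk1*, at 125, 58.9 and 171 in young and 0, 31.7, 6.98 and 10.5 in aged mice (-2.99 ± 0.591 SE, edgeR adjusted p = 0.00708). None of 34 genes in HS cells (6.26% of 8457 called) and of 23 in fibroblasts (3.17% of 5513) was called by edgeR. DESeq2 called 1 in HS cells.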

How the data were processed

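The data are 3′ single-cell transcriptomes of the mammary glands of 3 young and 4 aged nulliparous mice, each mouse in its own library. Reads were mapped to mm10 with Cell Ranger 2.0, and the authors deposited the raw counts of UMIs for every gene in the cells that passed their filters. A second deposited table assigns each cell to its mouse and cell type and gives the fraction of mitochondrial UMIs, computed by the authors. The genes and gene lists were chosen with earlier results of these data known. Cell types were used as the authors named them, and no doublet caller was run (an alternative left out the 5% of cells with most UMIs).

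For the age comparison of each of 8 types, UMIs of the cells of a mouse were added up, mice with fewer than 3 such cells were left out, low genes were removed by filterByExpr, and TMM factors were used in the quasi-likelihood test of edgeR 4.0.16 (R 4.3.3). Adjusted p-values (Benjamini-Hochberg) run over all genes tested, and calls needed a value below 0.05 and 1.5-fold. SE is the absolute log2 fold change divided by the square root of F. For 3 pairs of types the type-by-age term was tested with the mouse as a block. Alternatives were RLE factors, DESeq2 1.42.0, no filter, a minimum of 10 cells, no fold minimum, leaving out ribosomal and mitochondrial genes, thinning to 2000 UMIs, leaving out each mouse, and the replicate letter as a block. Leaving out cells with a UMI of another type's markers was chosen after seeing the data. All 10 members were named, and of the other pathway genes at most 5 called per type, by size of change, and *Rbpj* and *Snw1* were added after their values were seen. The values of 1 called pathway gene are not reported here. The fit was tested on simulated data. The letters A to D come from the sample titles: same-letter deviations correlated at -0.188 to 0.320, above 0.1 in 3 of 24 pairs, so they do not pair mice. Gene positions are from GENCODE and promoters from RefSeq, both on GRCm38. Precision is limited by depth, since the 10 genes had few UMIs in the rarer types.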

Additional observations from a re-analysis of the deposited data

Results flagged for a closer look

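4 values stood apart from the other aged mice of their cell type (a gap above 0.829 of the group's range, tested in 37 aged groups, of which chance gives about 1 in 20). *Jag1* in AV cells of Aged D was 6.28 scaled CPM, against 2.24 to 2.43 in the other 3 aged mice. *Jag1* in HS cells of Aged A was 31.9, against 13.8 to 15.9. *Hey1* in myoepithelial cells of Aged C was 27.2, against 3.28 to 5.88. *Hes1* in vascular endothelial cells of Aged D was 1130, against 909 to 918, and still below the lowest young value of 1317.

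The age effect of 3 genes differed between types by the edgeR test of the difference itself. The *Jag1* effect was higher in myoepithelial than in AV cells by 3.27 on the log2 scale, and higher in vascular endothelial cells than in pericytes by 1.55. The *Notch2* effect was higher in HS than in AV cells by 1.91, but this was lost in 6 of the 7 fits that left out a mouse (edgeR adjusted p = 0.0514 to 0.192). The vascular differences were lost without Young A, and that of *Jag1* also without Young B, Aged B or Aged D. *Hes1* differed by -0.83 between vascular endothelial cells and pericytes, with a decrease in the former (-0.58) and 0.28 in the latter.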

How the results depend on the processing

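*Jag1* in myoepithelial cells (log2 fold change 3.03 to 3.43) and in vascular endothelial cells (1.58 to 2.13) stayed called under all 17 alternatives each. *Jag2* in myoepithelial cells stayed called in the 12 alternatives where it passed the filter. *Dll4* in vascular endothelial cells was lost in 1 of 17 (without immune-marker cells, above). Over the 9 called values, 115 of 143 alternatives kept the call, 28 did not and 0 reversed. Fits in which the gene fell below the filter are not among the 143. No fold minimum and at least 10 cells per mouse could not lose a call here, also for *Jag1*. The former drops a criterion of the same fit, and the latter kept every mouse in these types. Called members in myoepithelial cells numbered 4, and 2 with DESeq2, 1 after thinning, 1 without fibroblast-marker cells and 2 to 4 with a mouse left out. In HS cells 1 became 0 with the replicate block (*Notch2* adjusted p = 0.0543), 0 after thinning and 0 to 1 with a mouse left out. Vascular endothelial cells had 4, then 3 with DESeq2, 3 with the block, 3 without immune-marker cells, 7 without a filter on low counts and 3 to 6 with a mouse left out. These were not always the same genes. The 3 with the block were *Jag1*, *Dll4* and *Hes1*, and the 3 without immune-marker cells were *Jag1*, *Hes1* and *Hey1*. AV cells had 0, and 0 to 1 with a mouse left out. Pericytes had 0, then 1 without the filter (*Notch1*) and 0 to 1 with a mouse left out. Fibroblasts, Mb macrophages and T and B cells stayed at 0. With a mouse left out, 977 to 1829 of all genes were called in myoepithelial cells (1860 in the main fit). The ranges were 134 to 554 in HS (529), 201 to 619 in AV (678) and 128 to 347 in pericytes (307). Vascular endothelial cells had 1655 to 2056 (2099). Calls over all genes under the other alternatives are not given here. A change in members or in the pathway list there cannot be told from a change in overall calling.

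Called genes of the wider pathway list numbered 8 in myoepithelial cells, then 5 with DESeq2, 5 with the block, 3 after thinning, 2 without fibroblast-marker cells and 3 to 9 with a mouse left out. In HS cells 0 became 1 with DESeq2, 3 without the filter and 0 to 1 with a mouse left out. In AV cells 1 became 0 with the block and 0 after thinning, and 0 to 1 with a mouse left out. Vascular endothelial cells had 4, then 2 with DESeq2, 1 with the block, 1 without immune-marker cells and 2 to 4 with a mouse left out. Pericytes had 1, and 0 without ribosomal and mitochondrial genes, without the 5% of cells with most UMIs or after thinning, and 0 to 1 with a mouse left out. Among the tests of a difference, myoepithelial against AV cells had 1 member, 3 without the filter and 1 to 2 with a mouse left out. HS against AV cells had 1, 2 without the filter and 0 to 1 with a mouse left out. Vascular endothelial cells against pericytes had 2, and 0 to 2 with a mouse left out. Over all genes, 339 to 751, 83 to 294 and 296 to 673 differed in these 3 comparisons with a mouse left out. The main fits had 873, 237 and 695. The replicate block is no pairing of mice, since same-letter samples did not deviate together. At least 10 cells per mouse could not be fitted in Mb macrophages and T and B cells. The causes of these changes were not tested, except that thinning and leaving out cells leave fewer UMIs and fewer genes past the filter (3696 instead of 6740 in myoepithelial cells after thinning).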
